A study of Arabidopsis thaliana with 12 samples.

Results

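The γ-aminobutyric acid (GABA) shunt of Arabidopsis was followed through 7 genes of the 32399 listed for each library, the glutamate decarboxylases GAD1 (AT5G17330), GAD2 (AT1G65960), GAD3 (AT2G02000), GAD4 (AT2G02010) and GAD5 (AT3G17760), the GABA transaminase POP2 (AT3G22200) and the succinic semialdehyde dehydrogenase SSADH (AT1G79440). The genes were chosen by locus identifier, as the enzymes of the pathway, and were selected on FPKM in the 4 cell types that were already known. Their levels and fold changes are therefore given as a description, without p-values. Of the 7 genes, 5 passed the filter on low values, and GAD3 and GAD5 did not.

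Polyadenylated RNA of microdissected cells was amplified with a kit that the labels call SMART-Seq Ultra Low Input and the paper SMARTer Ultra Low, from Col plants (ecotype Columbia-0 in the paper) grown under 16 h light and 8 h dark at 22 °C, and no mutant or treated plants were included. The groups were the embryo proper (32E) and the suspensor (32S) of 32-celled embryos, and the apical cell (AC) and the basal cell (BC) left by the division of the zygote, with 3 libraries each. The labels place AC and BC in 2-celled embryos and the series text at the 1-cell stage. AC and 32E belong to the apical cell lineage (ACL), and BC and 32S to the basal cell lineage (BCL). Each library pooled cells isolated from several embryos.

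The shunt is a side path of the tricarboxylic acid (TCA) cycle. In the cytosol, glutamate decarboxylase removes a carboxyl group from glutamate and leaves GABA. The plant enzyme is known for a C-terminal stretch that binds calmodulin, through which calcium activates it. GABA then enters the mitochondrion, where POP2 moves its amino group to pyruvate or glyoxylate and SSADH oxidises the resulting succinic semialdehyde to succinate, past the steps of 2-oxoglutarate dehydrogenase and succinyl-CoA ligase. POP2 was named from a mutant in which GABA builds up in the pistil and pollen tubes lose their way. GABA itself is known to build up under stress and to act on anion channels of the ALMT family.

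The calmodulin-binding stretch lies at the end of the decarboxylase, and the last 90 coding bases of the 5 genes are shown for that reason, 5′ to 3′ on the coding strand, as annotated by RefSeq on TAIR10.1. Capitals mark the first in-frame tryptophan codon of this window with the codons of the next 2 residues.
GAD1: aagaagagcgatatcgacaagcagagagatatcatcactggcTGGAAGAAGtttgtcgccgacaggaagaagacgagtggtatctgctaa
GAD2: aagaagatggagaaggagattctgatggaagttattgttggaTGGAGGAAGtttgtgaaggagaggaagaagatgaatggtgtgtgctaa
GAD3: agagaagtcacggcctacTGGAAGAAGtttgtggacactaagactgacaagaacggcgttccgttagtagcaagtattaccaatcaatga
GAD4: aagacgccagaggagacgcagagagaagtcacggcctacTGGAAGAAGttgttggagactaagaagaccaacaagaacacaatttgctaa
GAD5: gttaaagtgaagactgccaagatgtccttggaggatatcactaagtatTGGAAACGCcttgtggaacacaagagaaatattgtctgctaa

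From the tryptophan codon to the stop codon, the number of codons was 15 in GAD1, 15 in GAD2, 23 in GAD3, 16 in GAD4 and 13 in GAD5. GAD1, GAD3 and GAD4 share the 9 bases in capitals, while GAD2 and GAD5 differ in the codons after the tryptophan. GAD3 and GAD4 lie side by side on the minus strand, at chr2:469370-472070 and chr2:474108-476997 of TAIR10.1, 2037 bases apart. Their coding sequences were identical at 90.6% of 1479 aligned bases, against 69.3% to 76.5% for the other 9 pairs of decarboxylases. The longest run of bases shared by a pair of transcripts was 81, between GAD3 and GAD4, and no pair shared a stretch of 100 bases. RSEM divides fragments that match several transcripts by an estimate, so the split between GAD3 and GAD4 is less certain than that between the others.

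The other genes of the shunt stand apart from each other in the genome. GAD1 covers chr5:5710910-5715075 on the plus strand with 8 exons, GAD2 chr1:24551807-24557730 on the plus strand, and GAD5 chr3:6078727-6081355 on the minus strand. POP2 covers chr3:7835144-7839061 on the plus strand with 19 exons, and SSADH chr1:29882121-29887414 on the minus strand with 20 exons. GAD2 overlaps TPX2 (AT1G65970), a peroxiredoxin gene on the opposite strand, by 359 bases. The options that the paper lists for RSEM do not include strand, so fragments of the shared bases cannot be told apart by strand. TPX2 was at 995 ± 67.1 FPKM in 32S and 29.4 ± 3.71 in BC (SD, n = 3), while GAD2 was near 0 in 32S and highest in BC.

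Because GAD1, GAD4, POP2 and SSADH were all lowest in 32E, the 250 bases before their annotated starts are shown, 5′ to 3′ on the strand of the gene, from the TAIR10.1 sequence at chr5:5710660-5710909 (plus strand), chr2:476998-477247 (minus strand), chr3:7834894-7835143 (plus strand) and chr1:29887415-29887664 (minus strand). Capitals mark ACGT, the core of many bZIP sites, and TTGAC or its complement GTCAA, the core of the W-box, searched on both strands.
GAD1: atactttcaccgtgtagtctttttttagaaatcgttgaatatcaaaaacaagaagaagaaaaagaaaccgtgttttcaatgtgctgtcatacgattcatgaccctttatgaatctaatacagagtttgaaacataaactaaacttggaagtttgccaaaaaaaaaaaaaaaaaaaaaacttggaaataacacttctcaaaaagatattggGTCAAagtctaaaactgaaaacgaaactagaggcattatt
GAD4: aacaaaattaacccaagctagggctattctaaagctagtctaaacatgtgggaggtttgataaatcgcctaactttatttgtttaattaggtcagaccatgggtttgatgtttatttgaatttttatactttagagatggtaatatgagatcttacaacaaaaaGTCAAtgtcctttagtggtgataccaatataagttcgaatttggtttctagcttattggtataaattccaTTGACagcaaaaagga
POP2: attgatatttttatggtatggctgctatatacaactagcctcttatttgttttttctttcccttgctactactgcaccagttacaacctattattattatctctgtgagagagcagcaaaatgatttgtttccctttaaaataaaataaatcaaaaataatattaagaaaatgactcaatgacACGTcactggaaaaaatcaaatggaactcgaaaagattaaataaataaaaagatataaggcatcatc
SSADH: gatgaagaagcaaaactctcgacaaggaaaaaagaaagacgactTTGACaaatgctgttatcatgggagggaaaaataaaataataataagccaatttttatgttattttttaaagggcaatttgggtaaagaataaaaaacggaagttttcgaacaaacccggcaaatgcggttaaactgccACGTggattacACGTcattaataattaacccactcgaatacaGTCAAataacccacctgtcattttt

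No motif was common to the 4 windows. ACGT was found in POP2 and SSADH, and 44.1% of the 27443 windows of protein-coding genes held it. It was also found in the windows of GAD2, GAD3 and GAD5, which are not shown. TTGAC or GTCAA was found in GAD1, GAD4 and SSADH but not in GAD2, GAD3 or GAD5, against 44.9% of all windows. The G-box CACGTG, which contains ACGT, was found in SSADH, against 6.49% of all windows. The SSADH window runs into the neighbouring gene AT1G79450, which begins 201 bases away, and the TTGAC of SSADH at -206 lies within that gene. GAD4 and POP2 themselves overlap other annotated genes, and whether those reach into their windows was not checked. A match of letters is not a measured site, and these windows say nothing about binding.

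The labelled cell types were compared with the markers of both lineages, which did not all follow the labels. Of the basal markers, WOX8 was listed at 0 in every 32E library and averaged 429 ± 35.5 FPKM in 32S, 8.45 ± 1.25 in AC and 350.0 ± 22.0 in BC (SD, n = 3). PIN7 likewise averaged 2.50 ± 2.00 FPKM in 32E, 109 ± 26.8 in 32S, 0 in AC and 14.1 ± 2.11 in BC, but WOX9 stood at 92.5 ± 15.04 FPKM in 32E beside 292 ± 61.4 in 32S, 0.54 ± 0.775 in AC and 633 ± 24.8 in BC. Of the apical markers, DRN was higher in AC than in BC in every library, with 73.5 ± 23.8 FPKM in 32E, 0.92 ± 0.06 in 32S, 39.5 ± 19.0 in AC and 9.37 ± 0.859 in BC. WOX2 averaged 121 ± 4.75 FPKM in 32E and 0.80 ± 1.04 in 32S, but 113 ± 11.1 in AC and 158 ± 9.93 in BC, and ATML1 averaged 95.2 ± 5.54 FPKM in 32E, 21.9 ± 9.53 in 32S, 62.3 ± 3.17 in AC and 72.9 ± 5.44 in BC. The protoderm gene PDF1 was at 3297 to 4033 FPKM in 32E and at 503, 1941 and 897 in 32S, with no more than 2.25 in any AC or BC library. In library 32S-2, the highest of 32S for PDF1, the 20 highest genes also took 15.6% of the FPKM, against 11.6% and 11.8% in the other two 32S libraries. Per library, FPKM totalled 833418 to 955228, and 13034 to 15322 genes were above 1 FPKM. The files hold no counts, so the number of fragments behind a gene's value is not known, and genes without signal are described as listed at 0.

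GAD1 was the main decarboxylase transcript of the suspensor and was at or near 0 in the embryo proper. It was listed at 0, 0.03 and 0 FPKM in the 3 libraries of 32E, at 837, 602 and 793 in 32S, at 115, 110 and 151 in AC and at 71.3, 71.4 and 64.4 in BC. No groups overlapped, and the order was 32S, AC, BC and 32E. The mean of 744 ± 125 FPKM in 32S (SD, n = 3) ranked 124 of the 32399 genes, while the mean of 125 ± 21.9 in AC ranked 1322 and that of 69.0 ± 4.04 in BC ranked 2662. In these samples, fewer cells that express a gene and less of its RNA per cell cannot be told apart.

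The level of GAD1 was 10.8-fold higher in 32S than in BC, and 1.82-fold higher in AC than in BC. On the log2(FPKM + 1) scale, on which all log2 fold changes here were fitted, the difference was -9.51 ± 0.15 for 32E over 32S and -6.95 ± 0.15 for 32E over AC (SE). With almost no signal in 32E these values follow the pseudocount, and the difference of 32E over 32S was -12.72 with a pseudocount of 0.1 and -7.21 with one of 5. GAD1 thus lay lower in the later cells of the apical lineage and higher in the later cells of the basal lineage.

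GAD4, the neighbour of GAD3, was second to GAD1 among the decarboxylases of the suspensor. It stood at 0, 1.80 and 1.00 FPKM in 32E, at 40.1, 42.7 and 42.6 in 32S, at 10.04, 2.37 and 4.82 in AC and at 25, 21.5 and 20.4 in BC. The 4 groups did not overlap, in the order 32S, BC, AC and 32E, so that AC and BC stood in the opposite order from GAD1. The log2 fold change was -4.59 ± 0.42 for 32E over 32S, -1.95 ± 0.42 for AC over BC, -1.76 ± 0.42 for 32E over AC and 0.88 ± 0.42 for 32S over BC (SE).

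GAD2, known as the decarboxylase expressed in most organs of the plant, was found at a low level in the basal cell. Its FPKM was 0, 0.97 and 0 in 32E, 0.54, 1.04 and 0.26 in 32S, 0.04, 0.04 and 0 in AC and 8.82, 8.38 and 8.08 in BC. BC stood above the other 3 groups in every library, and 32E overlapped 32S and AC. On the log2 scale GAD2 differed by -3.20 ± 0.27 for AC over BC and by -2.57 ± 0.27 for 32S over BC (SE). GAD3 and GAD5 were listed at 0 in all 12 libraries.

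**Figure D1:**
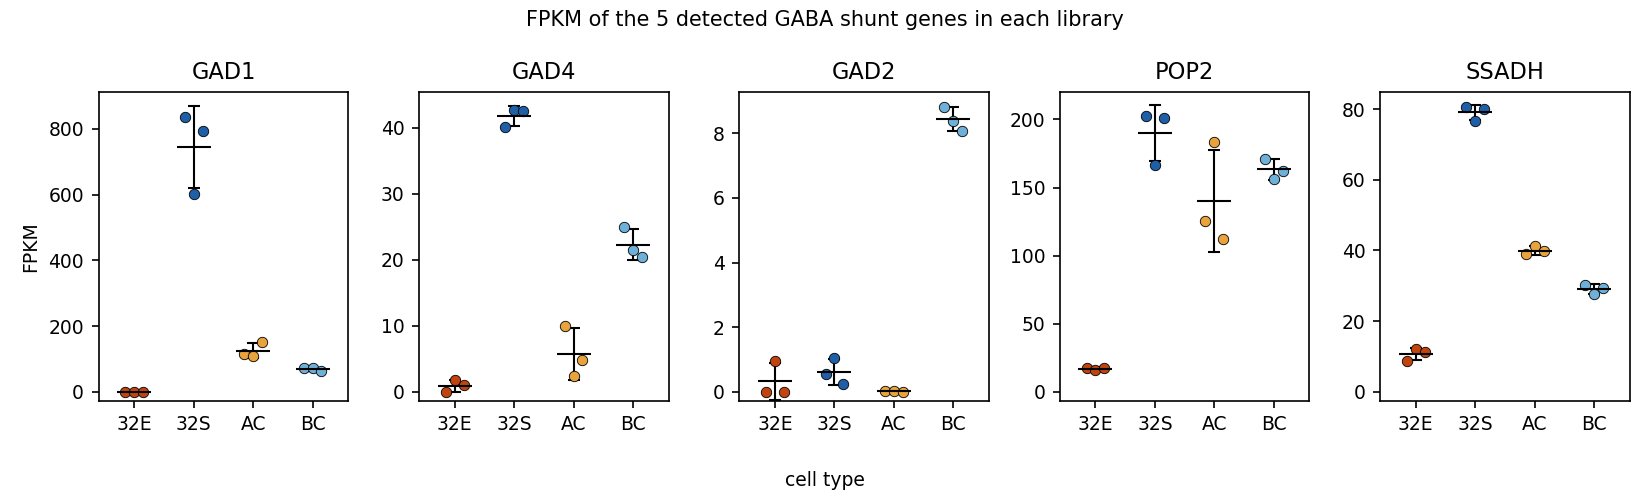
FPKM of the 5 detected shunt genes (y axis, a linear scale of its own in each panel) in the libraries of 32E, 32S, AC and BC (x axis), with 1 point per library and a line and bar for the mean and SD of 3 libraries. GAD1, GAD4 and SSADH are highest in 32S and lowest in 32E in every library, POP2 is low only in 32E, and GAD2 is above 8 FPKM only in BC.

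Summed over the 5 paralogs, the decarboxylases had 1.27 ± 1.42 FPKM in 32E, 786 ± 124 in 32S, 131 ± 21.8 in AC and 99.8 ± 6.30 in BC (SD, n = 3). GAD1 supplied 94.5% ± 1.13 of this sum in 32S, 95.6% ± 3.17 in AC and 69.2% ± 1.31 in BC. The basal cell held the most even mixture, with 22.3% ± 1.29 from GAD4 and 8.46% ± 0.223 from GAD2. GAD4 gave 5.43% ± 1.07 of the sum in 32S and 4.41% ± 3.16 in AC. In 32E the sum was too low for shares to carry meaning, with a range of 0 to 2.80 FPKM.

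**Figure D2:**
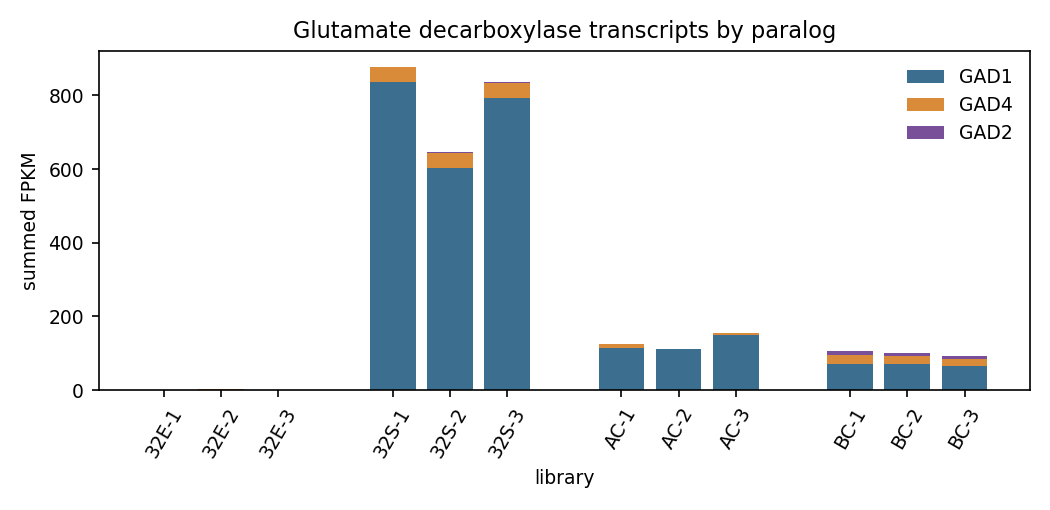
Summed FPKM of the glutamate decarboxylases (y axis) in each library (x axis), stacked by paralog. The 32E libraries reach at most 2.80 FPKM and are not visible as bars, GAD1 fills most of each 32S and AC bar, and the BC bars hold visible parts of GAD4 and GAD2.

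POP2, which takes the amino group from GABA, kept a high level in 3 of the 4 groups. It was at 17.5, 15.8 and 17.9 FPKM in 32E, at 203, 166 and 201 in 32S, at 125, 183 and 112 in AC and at 171, 156 and 162 in BC. The 3 libraries of 32E lay below all others, while 32S, BC and AC overlapped and could not be put in order beyond their spread. The means were 17.1 ± 1.147 FPKM in 32E, 190.0 ± 20.4 in 32S, 140.2 ± 37.7 in AC and 163 ± 7.48 in BC (SD, n = 3). The log2 fold change was -3.40 ± 0.16 for 32E over 32S, -2.94 ± 0.16 for 32E over AC, -0.25 ± 0.16 for AC over BC and 0.21 ± 0.16 for 32S over BC (SE).

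SSADH, which closes the shunt by making succinate, was ordered like GAD1 but over a smaller range. Its FPKM was 8.69, 12.1 and 11.3 in 32E, 80.5, 76.6 and 80.0 in 32S, 38.9, 41.3 and 39.7 in AC and 30.3, 27.7 and 29.4 in BC. The groups did not overlap, in the order 32S, AC, BC and 32E. The mean was 10.7 ± 1.77 FPKM in 32E, 79.0 ± 2.15 in 32S, 39.97 ± 1.25 in AC and 29.1 ± 1.33 in BC (SD, n = 3). SSADH differed by -2.79 ± 0.12 for 32E over 32S, -1.82 ± 0.12 for 32E over AC, 1.41 ± 0.12 for 32S over BC and 0.44 ± 0.12 for AC over BC on the log2 scale (SE).

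The balance between the 3 steps of the shunt also differed among cell types. Decarboxylase transcripts, as FPKM, were 0.0779 ± 0.0909 times those of POP2 in 32E, 4.12 ± 0.227 times in 32S, 1.00 ± 0.384 times in AC and 0.611 ± 0.0374 times in BC (SD, n = 3). This ratio was above 1 in every library of 32S, below 1 in every library of 32E and BC, and on both sides of 1 in AC. POP2 in turn was 1.64 ± 0.358 times SSADH in 32E, 2.40 ± 0.196 times in 32S, 3.49 ± 0.835 times in AC and 5.61 ± 0.0725 times in BC. In 32E the transaminase and the dehydrogenase were measurable in every library while the 5 decarboxylases together did not exceed 2.80 FPKM.

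Set beside all genes, a gene was called when its Benjamini-Hochberg adjusted p in limma was under 0.01 and its log2 fold change was at least 1 in size, in the 17060 genes that exceeded 1 FPKM in 3 or more libraries. For 32E over 32S, 4 of the 5 tested members (GAD1, GAD4, POP2 and SSADH) were called lower and none higher, where 22.6% of all tested genes were called lower and 23.8% higher. The same 4 members were called lower and none higher for 32E over AC, where 14.3% of all tested genes were called lower and 13.1% higher. The call of GAD4 there rested on single libraries, since it was lost without 32E replicate 1 (log2 fold change -1.34), without 32E replicate 3 (-1.84), without AC replicate 1 (-1.32) and without AC replicate 3 (-1.78). Both comparisons share the 32E libraries. Without 32S-2, the library that stood apart, the log2 fold changes for 32E over 32S were -9.66 for GAD1, -4.57 for GAD4, -3.49 for POP2 and -2.81 for SSADH, and those for 32S over BC were 3.54 for GAD1, 0.86 for GAD4, 0.30 for POP2 and 1.43 for SSADH. The members were chosen with these values known, so nothing is read from their counts.

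GAD2 passed the filter only through its 3 BC libraries, so that it had to differ from BC, and its calls against BC are no result. For AC over BC, GAD4 was called lower, beside GAD2, and no member higher, where 18.4% of all tested genes were called lower and 19.0% higher. For 32S over BC, GAD1 and SSADH were called higher, where 25.3% of all tested genes were, and GAD2 alone was called lower, where 26.7% were. GAD4 and POP2 were not called in that comparison. The change over time in the basal lineage minus that in the apical lineage, (32S over BC) minus (32E over AC), was 10.35 ± 0.21 for GAD1, 3.23 ± 0.17 for SSADH, 3.15 ± 0.22 for POP2, 2.64 ± 0.60 for GAD4 and -2.86 ± 0.38 for GAD2 on the log2 scale (SE).

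The plot of fold changes sets the members against the spread of all tested genes. For 32E over 32S, 0.106% of all tested genes had a change at least as large in size as that of GAD1, against 3.66% for GAD4, 8.43% for POP2 and 13.4% for SSADH. All 3 libraries of 32E lay below all 9 others in 4 of the 5 tested members, and in 9.02% of all tested genes. All 3 libraries of 32S lay above all 9 others in GAD1, GAD4 and SSADH, and in 19.8% of all tested genes. Both held for these 3 members and for 3.28% of all tested genes.

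**Figure D3:**
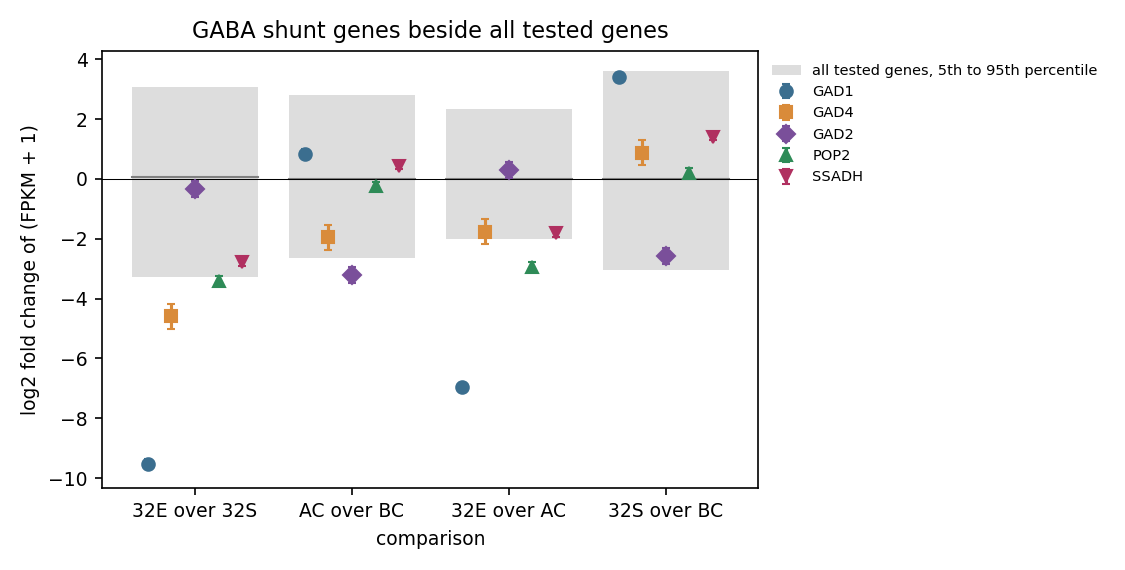
Log2 fold change of FPKM + 1 (y axis) of the 5 tested shunt genes in the 4 comparisons (x axis), with bars for the SE, most of them smaller than the symbol. Grey boxes run from the 5th to the 95th percentile of the 17060 tested genes with a line at their median, and GAD1, GAD4 and POP2 lie below the box for 32E over 32S.

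The markers of other seed tissues moved with these levels in part. The summed FPKM of 8 endosperm markers was 4.71 to 15.6 in 32E, 463 to 531 in 32S, 41.4 to 73.7 in AC and 277 to 302 in BC. Nearly all of it was SUC5, a sucrose transporter, at 8.52 ± 5.76 FPKM in 32E, 504 ± 36.3 in 32S, 51.0 ± 14.4 in AC and 293 ± 14.0 in BC (SD, n = 3). AGL62, a defining gene of the endosperm, was listed at 0 in all libraries of 32E, AC and BC and at 0.07 to 1.55 FPKM in 32S. Of the 8 markers, 4 were listed at 0 in all 32E libraries, 5 in 32S, 4 in AC and 6 in BC. The 8 seed coat markers summed to 34.5 to 46.1 FPKM in 32E, 3.86 to 11.7 in 32S, 8.84 to 15.4 in AC and 23.8 to 28.4 in BC, the reverse of GAD1 between 32E and 32S. Most of it was MUM4 and STK. MUM4 averaged 22.2 ± 5.58 FPKM in 32E, 0.01 ± 0.017 in 32S, 8.05 ± 1.94 in AC and 26.1 ± 2.44 in BC (SD, n = 3). STK averaged 17.9 ± 0.974 FPKM in 32E and 7.25 ± 4.03 in 32S. No other seed coat marker exceeded 1.97 FPKM in any library. The part of these seed tissues in the levels of the shunt genes was not tested.

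The genes whose pattern was most like that of a member were found by the mean absolute difference of log2(FPKM + 1) over the 12 libraries, each gene centred on its own mean, among 17059 other genes. For GAD1 they were AT4G30880, of the lipid-transfer protein superfamily, at a mean difference of 0.69, the copper transporter COPT2 at 0.69 and the sugar transporter SWEET12 at 0.78. COPT2 averaged 0.12 ± 0.115 FPKM in 32E, 367 ± 39.2 in 32S, 213 ± 30.8 in AC and 154 ± 18.6 in BC (SD, n = 3). SWEET12 was likewise lowest in 32E, with 21.6 ± 13.4 FPKM, and highest in 32S, with 3078 ± 387.

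The measure is not scaled to the range of a gene on the log2 scale, which was widest for GAD1. The nearest genes of the other members lay at smaller differences. For GAD2 these were BGLU44 at 0.21, MEK1 at 0.22 and NPQ4 at 0.22, each above 6 FPKM on average in BC and below 1 in the other groups. For GAD4 they were EULS3 at 0.33, AT4G38370 at 0.38 and TBP1 at 0.40, for POP2 AT1G67590 at 0.17, AT4G13530 at 0.23 and AT3G59320 at 0.26, and for SSADH UBC30 at 0.14, PIS2 at 0.17 and CYP5 at 0.17. No member was among the 3 nearest genes of another. POP2 and SSADH, which act in sequence, differed by 0.59 on this measure. SSADH ranked 155 among the genes nearest to POP2, and POP2 ranked 976 among those nearest to SSADH.

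Around the shunt, 68 genes in 6 lists were examined, of which 57 passed the filter. The lists were drawn up with earlier results of these data known, and genes were named for their largest called changes. The adjusted p of a named list gene is therefore given as a description and not as support. AAP3 passed the filter only through BC, GLU1 and PAO2 only through AC, PAO5 only through 32E and PROT2 only through 32S. Calls of these genes against that group, counted below, are therefore no result. In the list of glutamate supply and use, 7 of 14 tested genes fell and 1 rose for 32E over 32S, where 22.6% of all tested genes were called lower and 23.8% higher. Its median log2 fold change was -1.01, against 0.05 for all tested genes. The shares of all tested genes called higher and lower were 19.0% and 18.4% for AC over BC, 13.1% and 14.3% for 32E over AC, and 25.3% and 26.7% for 32S over BC. The list had 4 higher and 3 lower calls for AC over BC (median 0.35, all tested genes 0.00). It had 1 and 3 for 32E over AC (-0.70, -0.01), and 4 and 2 for 32S over BC (0.74, 0.00). Its calls for 32S over BC numbered 4 to 9 under the alternatives. The higher call of GDH1 there was lost without any single BC library, without 32S replicate 1 or 3, with a pseudocount of 5 and with only those groups in the model.

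P5CS1, the first enzyme of proline synthesis from glutamate, averaged 27.0 ± 4.98 FPKM in 32E, 437 ± 27.5 in 32S, 49.6 ± 6.99 in AC and 117 ± 3.05 in BC (SD, n = 3). It fell for 32E over 32S (log2 fold change -3.98 ± 0.14 SE, limma adjusted p = 3.82e-10) and rose for 32S over BC (1.89 ± 0.14, limma adjusted p = 1.81e-07). The glutamate dehydrogenases, which interconvert glutamate and 2-oxoglutarate, went in opposite directions. GDH1 was at 22.8, 42.4 and 26.3 FPKM in 32E and at 2.63, 0.61 and 1.98 in 32S, higher by 3.55 ± 0.35 (SE, limma adjusted p = 2.49e-06), and it was listed at 0 in every BC library. GDH2 averaged 172 ± 63.8 FPKM in 32E, 900 ± 186 in 32S, 261 ± 64.2 in AC and 2374 ± 113 in BC (SD, n = 3), and fell for AC over BC by 3.21 ± 0.26 on the log2 scale (SE, limma adjusted p = 1.14e-06).

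Of the transporters and GABA-responsive anion channels, 7 of 12 were tested, and 3 fell and none rose for 32E over 32S, where 22.6% of all tested genes fell and 23.8% rose (median -1.40 against 0.05 for all tested genes). GAT1, the plasma membrane carrier of GABA, was listed at 0 in 11 of the 12 libraries and at 0.04 FPKM in the other. PROT2, which carries proline, betaine and GABA, was highest in the suspensor, with 0, 0.62 and 0.29 FPKM in 32E, 85.6, 59.3 and 84.2 in 32S, 0 in every AC library and 0.64, 1.66 and 0.36 in BC. On the log2 scale PROT2 differed by -5.90 ± 0.28 for 32E over 32S and by 5.40 ± 0.28 for 32S over BC (SE). It passed the filter only through 32S, so its calls against 32S are no result and no p-value is given.

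Among the channels, ALMT9, an anion channel of the vacuole, was at 7.65 ± 0.151 FPKM in 32E, 21.9 ± 1.28 in 32S, 9.22 ± 3.34 in AC and 2.41 ± 0.823 in BC (SD, n = 3), and rose for 32S over BC by 2.77 ± 0.27 on the log2 scale (SE, limma adjusted p = 2.24e-06). ALMT4, also of the vacuole, was at 2.68, 6.93 and 0 FPKM in AC and at 26.3, 22.0 and 27.5 in BC, and fell for AC over BC by 3.09 ± 0.59 (SE, limma adjusted p = 0.00081), a call lost with only those groups in the model. The list as a whole had 1 higher and 2 lower calls for AC over BC (median -0.86, all tested genes 0.00). The higher call was ALMT9, lost with a pseudocount of 5 (0.92) and with only those groups in the model. The lower calls were ALMT4, lost as stated, and AAP3, which passed the filter only through BC. The list had 0 and 1 for 32E over AC (0.14, -0.01), and 2 and 1 for 32S over BC (-0.09, 0.00). The calls of the list for 32E over 32S numbered 5 without AC replicate 3.

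The calmodulin genes are close paralogs, so the split of fragments among them is less certain than for other genes. All 7 were tested, and 2 rose and 2 fell for 32E over 32S, near the 23.8% and 22.6% of all tested genes (median 0.16 against 0.05 for all tested genes). CAM1 averaged 148 ± 14.8 FPKM in 32E and 660.5 ± 99.8 in 32S, and fell by 2.15 ± 0.11 on the log2 scale (SE, limma adjusted p = 7.96e-09). CAM4, which encodes the same protein as CAM1, averaged 195 ± 12.3 FPKM in 32E and 589 ± 78.8 in 32S, and fell by 1.58 ± 0.10 (SE, limma adjusted p = 3.46e-08). CAM2 ran the other way, at 116 ± 8.36 FPKM in 32S and 342 ± 26.2 in BC, and fell for 32S over BC by 1.55 ± 0.10 (SE, limma adjusted p = 6.72e-08). The list had no call for AC over BC (median 0.19, all tested genes 0.00) or for 32E over AC (-0.30, -0.01), and 2 higher and 1 lower for 32S over BC (-0.33, 0.00).

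Both succinic semialdehyde reductases, which turn succinic semialdehyde into 4-hydroxybutyrate in place of succinate, were tested. Neither was called for 32E over 32S (median -0.36, all tested genes 0.05) or for AC over BC (-0.29, 0.00). GLYR2, the plastid form, was at 12.6 ± 3.4 FPKM in 32E, 15.4 ± 5.70 in 32S, 26.0 ± 2.54 in AC and 35.7 ± 2.83 in BC (SD, n = 3). It fell by 1.21 ± 0.24 on the log2 scale for 32S over BC (SE, limma adjusted p = 0.000743) and by 1.02 ± 0.24 for 32E over AC (limma adjusted p = 0.00418). The first call was lost without 32S replicate 1 (-0.99), and the second without 32E replicate 1 (-0.96), without 32E replicate 3 (-0.88), without AC replicate 2 (-0.96) and without AC replicate 3 (-1.002). Both were lost under median-ratio scaling (-0.93 for 32S over BC and -0.88 for 32E over AC), and the second also with a pseudocount of 5 (-0.84) and with only those groups in the model (-1.02). These were the sole calls of the list, whose median was -0.86 for 32E over AC and -0.78 for 32S over BC, against -0.01 and 0.00 for all tested genes.

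The TCA cycle steps beside the shunt comprise 2-oxoglutarate dehydrogenase and succinyl-CoA ligase, which the shunt passes by, and succinate dehydrogenase, which uses its product. Of 14 tested genes, 2 rose and 4 fell for 32E over 32S, beside 23.8% and 22.6% of all tested genes (median -0.14 against 0.05 for all tested genes). The calls were 2 higher and 0 lower for AC over BC (-0.29, 0.00), 0 and 2 for 32E over AC (-0.20, -0.01), and 1 and 3 for 32S over BC (0.11, 0.00). Without 32E replicate 3 the calls for 32E over AC numbered 1.

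SDH1-2, an isoform of the flavoprotein subunit of succinate dehydrogenase, was at 8.88, 5.65 and 10.6 FPKM in 32E and at 21.7, 18.2 and 24.7 in AC, and was listed at 0 in every library of 32S and BC. It rose for AC over BC by 4.48 ± 0.23 on the log2 scale (SE, limma adjusted p = 4.62e-08). SDH2-1, an iron-sulphur subunit, averaged 63.1 ± 6.06 FPKM in 32E, 204 ± 33.4 in 32S, 47.9 ± 2.25 in AC and 67.7 ± 3.67 in BC (SD, n = 3), and fell by 1.67 ± 0.12 for 32E over 32S (SE, limma adjusted p = 1.61e-07). OGDH-E1b, a subunit of 2-oxoglutarate dehydrogenase, averaged 20.8 ± 2.36 FPKM in 32E and 64.9 ± 10.01 in 32S, and fell by 1.59 ± 0.15 (SE, limma adjusted p = 2.19e-06).

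**Figure D4:**
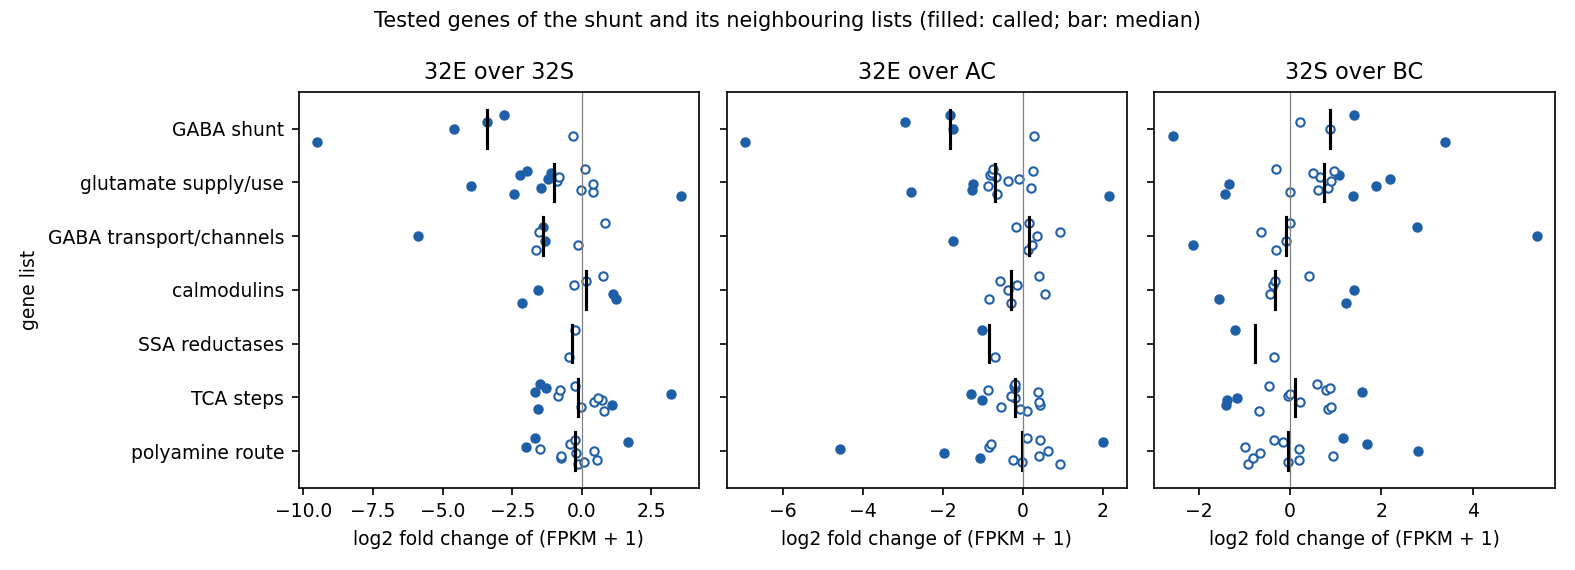
Log2 fold change of FPKM + 1 (x axis) of each tested gene of the shunt and of the 6 lists (rows) for 32E over 32S, 32E over AC and 32S over BC, with 1 point per gene, filled where the gene was called, and a bar at the list median. GAD1 is the leftmost point for 32E over 32S and for 32E over AC, and PROT2 is the rightmost for 32S over BC.

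Polyamines are the other source of GABA, through oxidases and an aminoaldehyde dehydrogenase. Of 13 tested genes of this route, 1 rose and 2 fell for 32E over 32S, beside 23.8% and 22.6% of all tested genes (median -0.23 against 0.05 for all tested genes). The calls were 3 higher and 3 lower for AC over BC (-0.22, 0.00), 1 and 3 for 32E over AC (-0.03, -0.01), and 3 and 0 for 32S over BC (-0.05, 0.00). PAO1, a cytosolic polyamine oxidase, averaged 17.1 ± 0.727 FPKM in 32S and 1.61 ± 0.134 in BC, and rose by 2.79 ± 0.19 on the log2 scale (SE, limma adjusted p = 1.11e-07). PAO3, a peroxisomal polyamine oxidase, averaged 7.003 ± 1.80 FPKM in AC and 33.5 ± 1.62 in BC, and fell by 2.13 ± 0.24 (SE, limma adjusted p = 1.28e-05).

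PAO2 was listed at 0.01 FPKM in every 32E library, at 0.01, 22.8 and 0.01 in 32S, at 15.7, 17.8 and 43.3 in AC and at 0.01, 14.4 and 0.02 in BC. Its log2 fold change was -4.57 ± 1.24 for 32E over AC (SE, limma adjusted p = 0.009), a call that was lost on leaving out any single library of 32E or of AC, with values of -4.84 to -4.13, and without BC replicate 3 (-4.57). It was also lost with a pseudocount of 0.1 (-7.71), with no filter (-4.57) and under median-ratio scaling (-4.43). No library lay between 0.02 and 14.4 FPKM, and the part that the estimated division of fragments had in this was not tested, so these values are given as listed and not read as levels of the gene. The calls of the list for 32E over AC numbered 2 without AC replicate 2.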

How the data were processed

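The FPKM of 12 libraries were used as deposited. The authors made these FPKM, which relate fragments to transcript length and to the library total, with RSEM against TAIR10, and the files give 2 decimals. The paper names Bowtie 2 for this step and the submitters' processing notes name TopHat2 2.1.1, so the aligner is not settled. Scaling to a library total means that a few very high genes lower all others. Samples were grouped by labelled cell type, and no label assigns a sample to a batch, so no within-batch values are given.

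All 4 groups entered a single linear model of log2(FPKM + 1) in limma 3.58.1 (R 4.3.3) with a trended prior, which left 8 residual and 3.24 prior degrees of freedom. Genes had to exceed 1 FPKM in 3 or more libraries, which left 17060. Calls required a Benjamini-Hochberg adjusted p under 0.01 together with a log2 fold change of 1 or more in size. Fold changes on this scale understate the change of low genes. The fit was also run on simulated data, and no result of that run is used here. The series text describes the samples as independent. The p-values set a difference against the spread of replicate libraries, pooled over the 4 groups and moderated by the prior.

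The members and lists were chosen with earlier results of these data known. Named genes are the 7 members, up to 3 called genes per list with the largest change, and the 3 genes nearest to each member. GAT1, TPX2, AAP3, GLU1, PAO5, ADC1, OGDH-E2b and CAM3 were named after their values were seen. Alternatives were pseudocounts of 0.1 and 5, no filter, a filter at FPKM 5, median-ratio scaling, equal FPKM sums, a model of the compared pair alone, a replicate block, and leaving out each library. Sequences and positions came from TAIR10.1 of RefSeq through locus identifiers, read with biopython 1.88. Other steps used python 3.11.15, numpy 2.4.6, pandas 2.3.3 and matplotlib 3.10.9. Amino acid sequences were not used here.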

Additional observations from a re-analysis of the deposited data

Results flagged for a closer look

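For 3 shunt genes, every library of 32E lay below every library of AC, and every library of 32S above every library of BC. Of all tested genes, 32.9% lay lower without overlap for 32E over AC, and 35.5% lay higher without overlap for 32S over BC. The share of genes in which both held was not computed. The change of 32S over BC minus that of 32E over AC was 10.35 on the log2 scale for GAD1, 3.23 for SSADH and 2.64 for GAD4. The difference was not tested, because the genes were chosen with these values known.

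Of the list genes named, 8 were called in limma for the same difference in change over time between the lineages. It was 5.04 for PROT2, whose call is no result. The difference was 2.96 for ALMT9 (adjusted p = 3.32e-05), 2.75 for P5CS1 (adjusted p = 2.64e-07) and 2.17 for PAO1 (adjusted p = 2.45e-05). It was 1.77 for CAM4 (adjusted p = 5.06e-07), 1.52 for CAM1 (adjusted p = 4.97e-06), 1.29 for SDH1-2 (adjusted p = 0.00383) and 1.18 for SDH2-1 (adjusted p = 7.86e-05). These 8 were named for large changes, and 52.8% of all tested genes were called for this difference. Nothing is therefore read from their number. PROT2 passed the filter only through 32S, AAP3 through BC, GLU1 through AC and PAO5 through 32E. Their calls for this difference are no result, and the counts that follow include them. Over the 57 tested genes of the 6 lists, 22 were called with a positive and 5 with a negative difference, namely AAP3 (-2.36), PAO5 (-2.16), ADC1 (-1.85), OGDH-E2b (-1.83) and CAM3 (-1.01), while 52.8% of all tested genes were called for this difference, 25.8% with a positive and 27.0% with a negative value. SDH1-2 was listed at 0 in 32S and BC, so its value is the change of 32E over AC alone, and its call was lost without 32S replicate 1, without 32S replicate 3 and without BC replicate 1, with the value at 1.29 in each case.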

How the results depend on the processing

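No log2 fold change of a called shunt gene and none of a named list gene with a call reversed under any alternative. Of 400 recomputed member fold changes, 375 stayed within 1 SD of the replicates and 25 moved, most of them with the pseudocount, on which values near 0 depend. Of 1280 values of named list genes, 1236 kept their side of the threshold, 30 lost a call and 14 gained one. Of 480 counts per list, 463 stayed within 1.5 times.

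The members called for AC over BC numbered 1 with a pseudocount of 0.1 and 1 with only the groups compared in the model, against 2 as reported, and GAD4 was the gene lost. For 32E over AC, GAD4 lost its call with pseudocounts of 0.1 (-3.07) and 5 (-0.81), with only those groups in the model, and without the libraries named above. The genes called for 32E over AC numbered 2852 with a pseudocount of 5, against 4679 as reported. Without single libraries, the genes called ranged from 7064 to 8065 for 32E over 32S, 5553 to 6516 for AC over BC, 3744 to 4870 for 32E over AC and 8020 to 8969 for 32S over BC. The members called stayed at 4, 2 and 3 for 32E over 32S, AC over BC and 32S over BC, and ranged from 3 to 4 for 32E over AC. The counts of 2 and 3 include GAD2, whose calls against BC are no result. Median-ratio scaling moved the median of all genes by 0.14 for 32S over BC, where GAD1 was then at 3.68, SSADH at 1.69 and POP2 at 0.50.

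Whether libraries with the same replicate number came from the same embryos is not known. The correlations below cannot exclude it, since each deviation is taken from a mean of only 3 libraries. Of 12 same-numbered pairs of libraries, 0 had deviations correlated above 0.1 (-0.125 to 0.066). In 3 of 12 cases a library was closest to its own number in the other group. The 32E libraries were counted both against 32S and against AC, and no case was counted from a BC library. With the replicate block, 7825 genes were called for 32E over 32S, against 7907 without it, and GAD4 was not called for 32E over AC.

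The files hold no counts per gene, so no limit is given for a value of 0. With 3 libraries a group, the order of POP2 in 32S, AC and BC could not be settled.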
